A study of Homo sapiens with 56 samples.

Results

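PEO1 is an established ovarian cancer cell line, and its 2 arrays were set against those of 7 other epithelial ovarian cancer lines, CAOV3, OVCAR3, OAW28, JHOS2, JHOS3, JHOS4 and OVCA433. Arrays were assigned to lines by their labels, and the lines of the group were chosen with earlier results of these data known. This gave 16 of the 56 arrays and 8 of the 28 lines of the series. The study profiled these lines to follow epithelial–mesenchymal transition (EMT), the change by which epithelial cells lose their junctions and take on a motile form. All lines were untreated cultures measured on Affymetrix Human Gene ST arrays, as log2 signals after robust multi-array averaging (RMA). PEO1 was grown in RPMI with 10% serum (FBS). OVCAR3 was the other line of the group in RPMI, with 20% FBS and insulin. CAOV3, OVCA433 and OAW28 were grown in DMEM with 10% FBS, OAW28 with insulin, and JHOS2, JHOS3 and JHOS4 in DMEM/F12 with 10% FBS and non-essential amino acids. 1 array of JHOS4 is spelled JHSO4 in its label and was taken as JHOS4. Each line is a single isolate, and the labels do not say whether its 2 arrays came from separate cultures, so the spread between them may be technical.

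Epithelial cells are held together by adherens junctions, built on E-cadherin, by tight junctions, which seal the sheet, and by desmosomes, which anchor keratin filaments. Keratins pair a type I with a type II protein, and simple and stratified epithelia use different pairs. Repressors of the ZEB and SNAI families shut these genes off during EMT, whereas GRHL and OVOL factors keep them on. Serous ovarian carcinomas commonly express estrogen receptor, PAX8, WT1 and MUC16, the antigen CA125.

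The 16 arrays had medians between 6.0 and 6.14 log2 units and standard deviations between 2.20 and 2.32, and every array resembled its own duplicate more than any array of another line. The 2 PEO1 arrays differed by at least 1 log2 unit for 31 of 18377 genes, against 5 genes for JHOS3 and 189 for JHOS4. The 8 epithelial markers averaged 12.3 in PEO1, against 9.94 to 11.1 in the other lines, and none was under 6 in PEO1. The mesenchymal gene *VIM*, vimentin, averaged from 4.81 in OAW28 to 12.1 in OVCA433 across the other lines. The group called epithelial here was thus not uniform. The mean of the 10 fibroblast markers was 5.15 in PEO1, against 4.96 to 5.30 in the other lines. The 11 leukocyte markers averaged 5.24 in PEO1, above the 4.81 to 5.22 of the other lines, and 7 of the 11 were under 6 in PEO1, among them *PTPRC*, the pan-leukocyte antigen CD45, at 2.98. The highest was *CD68*, at 8.76 in PEO1 against 6.33 to 9.10 on the other arrays. Their part in the results was not tested. Endothelial markers averaged 5.31 in PEO1 and 5.38 to 5.81 in the other lines. The 5 measured mesothelial markers averaged 8.76 in PEO1 and 6.5 to 7.66 in the other lines; *KRT5* and *WT1* are on that list. The arrays carry no detection calls, so a low signal cannot be told from background.

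Which genes put PEO1 beyond all of the other lines? A gene was called where PEO1 differed in 1 direction from each of the 7 lines, with a limma adjusted p below 0.05 for the weakest of the 7 differences and at least 1 log2 unit to the nearest line. By this rule 103 genes (0.56% of 18377) were higher in PEO1 and 21 (0.114%) were lower. Both PEO1 arrays lay beyond all 14 other arrays for each of these 124 genes, as they did, above or below, for 5.37% and 4.49% of all genes. The higher genes stood apart by a median of 1.4 and at most 3.58 log2 units from the nearest line, and the lower genes by a median of -1.17 and at most -1.98. Higher calls outnumbered lower calls in each of the 8 lines when it took the place of PEO1. CAOV3, OVCAR3, OAW28 and JHOS4 had more higher calls than PEO1, so counts as large were found in other lines. CAOV3 had 178 higher and 85 lower genes, and JHOS2 had 42 and 14.

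**Figure D1:**
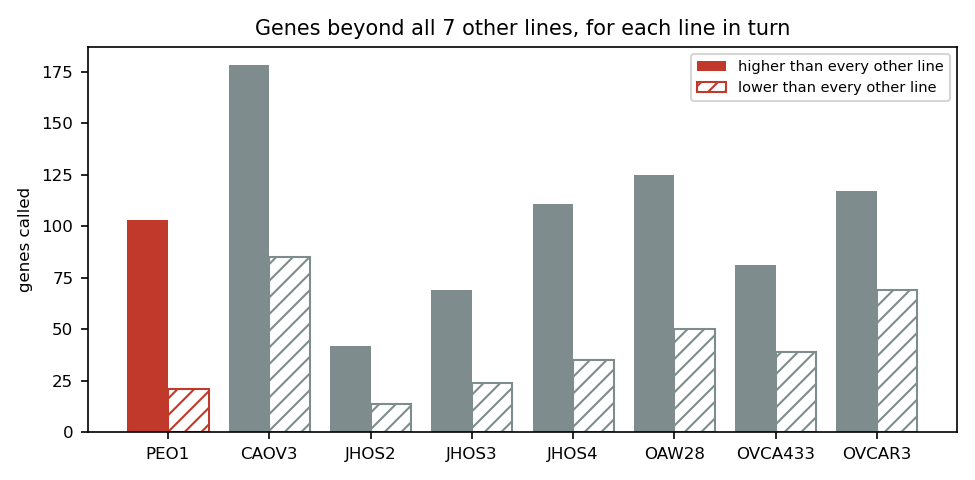
Number of genes (y axis) that were higher (filled bars) or lower (hatched bars) than in all 7 other lines, for PEO1 (red) and each other line (grey) on the x axis. PEO1 had 103 higher and 21 lower genes, and the other lines had between 42 and 178 higher genes.

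The 15 genes furthest above every other line were of mixed function. *DSC3*, a desmosomal cadherin, was at 9.72 and 9.21 on the PEO1 arrays, against 3.34 to 6.02 with a median of 4.84 on the 14 other arrays. The nearest line was JHOS2, 3.58 ± 0.24 (SE) log2 units or 11.9-fold below PEO1 (limma adjusted p = 4.0e-08). *BDKRB1*, the inducible bradykinin receptor, was at 8.70 and 8.91 in PEO1, against 4.67 to 5.75 with a median of 5.34 in the other lines. Its 7 other lines lay close together, and PEO1 stood 3.2 ± 0.23 above JHOS3 (adjusted p = 1.7e-07). *SERPINB7*, a serine protease inhibitor, was at 8.68 and 8.75 in PEO1, against 3.55 to 5.65 with a median of 5.01 elsewhere. *CNTN1*, a neural adhesion protein of the immunoglobulin family, was at 8.83 and 8.92 in PEO1, against 3.66 to 6.0 with a median of 4.69 in the other lines. Neither gene overlapped between the groups, and the nearest lines were JHOS3 at 3.07 ± 0.14 below PEO1 for *SERPINB7* and OVCAR3 at 3.03 ± 0.23 below it for *CNTN1*.

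*IL7R*, the interleukin-7 receptor chain, was at 8.96 and 9.07 in PEO1, against 3.76 to 6.45 with a median of 4.53 in the other lines, where JHOS2 was highest. *RASGRP1*, which loads RAS with GTP, was at 8.33 and 8.17 in PEO1, against 4.0 to 6.18 with a median of 4.43 in the other lines. *MAL*, a proteolipid of apical membrane transport, was at 13.1 on both PEO1 arrays, against 6.17 to 10.9 with a median of 8.68 in the other lines. PEO1 exceeded the nearest line by 2.59 ± 0.16 for *IL7R*, 2.33 ± 0.17 over CAOV3 for *RASGRP1* and 2.24 ± 0.10 over JHOS3 for *MAL* (limma adjusted p = 1.2e-09, 1.9e-08 and 1.6e-11). *CEACAM6*, an adhesion antigen of gut epithelium, was at 7.19 and 6.78 in PEO1, against 3.71 to 4.56 in the other lines; genes of its family are alike in sequence, so part of the signal may come from a relative. *BGN*, the matrix proteoglycan biglycan, was at 9.08 and 9.02 in PEO1, against 6.05 to 6.98 elsewhere. *AFAP1-AS1*, a long non-coding RNA antisense to AFAP1, was at 7.71 and 7.74 in PEO1, against 4.69 to 5.52 in the other lines. *ZNF560*, a zinc finger gene, was at 5.49 and 5.61 in PEO1, against 3.00 to 3.60 in the other lines, and *FAM180A* at 7.35 and 7.23, against 4.70 to 5.40. For these 5 genes the groups did not overlap, and PEO1 lay 1.98 to 2.52 log2 units above the nearest of them.

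**Figure D2:**
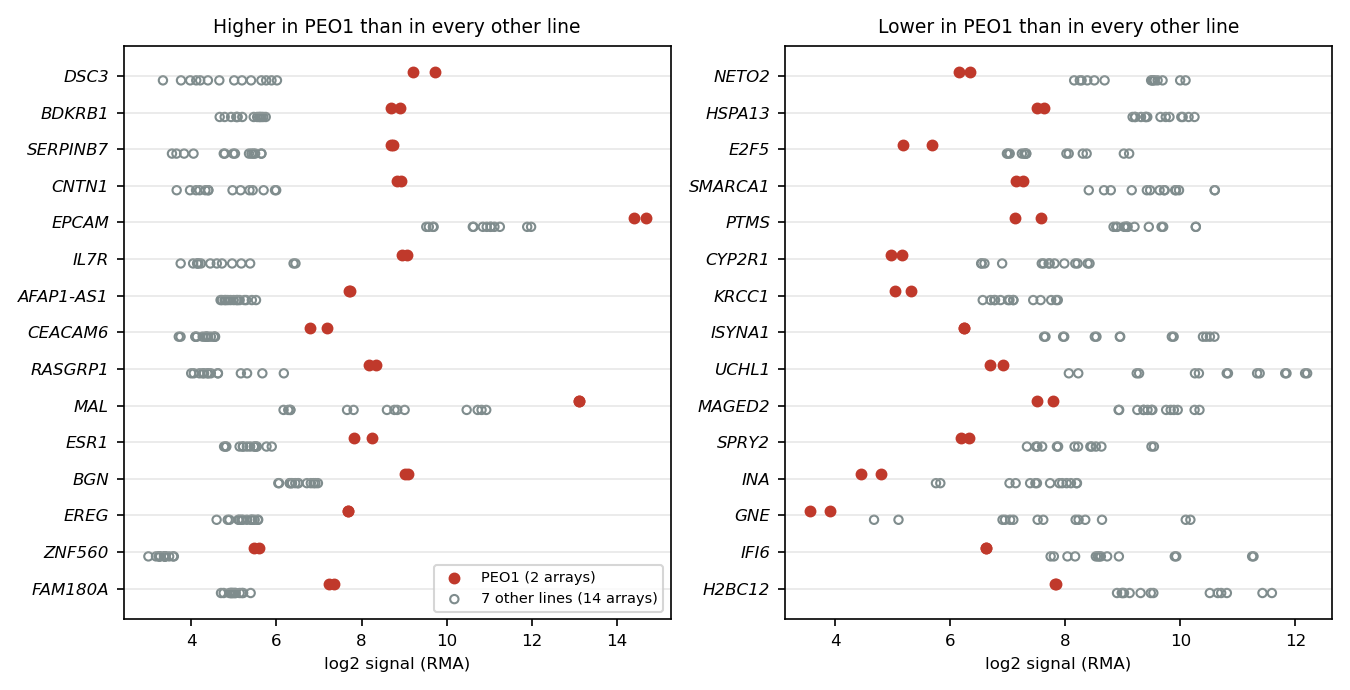
Log2 RMA signal (x axis) of the 15 genes furthest above (left) and the 15 furthest below (right) every other line, 1 row for each gene, with PEO1 arrays as filled red points and the 14 arrays of the other lines as open grey points. No PEO1 point lies among the grey points, and *DSC3* shows the widest gap, 3.58 log2 units.

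Among the junction genes, *EPCAM*, an epithelial adhesion protein, and *CDH1*, which encodes E-cadherin, stood out. *EPCAM* was at 14.7 and 14.4 in PEO1, against 9.52 to 12 with a median of 10.9 in the other lines. OAW28 came nearest, 2.60 ± 0.08 log2 units or 6.04-fold below PEO1 (limma adjusted p = 2.1e-13). *CDH1* was at 11.8 and 11.5 in PEO1, against 7.94 to 9.89 with a median of 9.18 in the other lines. OAW28 was again nearest, at 1.83 ± 0.09 below PEO1 or 3.56-fold (adjusted p = 6.2e-11). With the error taken over all 56 arrays neither call held (adjusted p = 0.44 for *EPCAM* and 0.20 for *CDH1*), and both held over 52 arrays, without 4 arrays of other lines whose standard deviation was under 2.1 (0.0499 and 0.021). They were 2 of the 21 adherens or tight junction genes (9.52%, beside 0.56% over all genes), with no lower call. The median difference of the 21 genes from the mean of the other lines was 1.04, against -0.015 for all genes. *TJP1*, the tight junction scaffold ZO-1, averaged 10.5 in PEO1 against 8.52 to 10.0 on the other arrays, and *MARVELD2*, tricellulin, averaged 8.68 against 6.89 to 8.02; both passed the p threshold but not the minimum of 1 log2 unit. *CLDN6*, a claudin of fetal epithelia, went the other way without a call, at 4.48 in PEO1 against 4.12 to 10.5 in the other lines.

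The desmosome list held *DSC3* as its 1 call among 12 genes (8.33%, beside 0.56% higher over all genes), and its median difference was 0.86. The plaque protein *PKP2* averaged 10.9 in PEO1, against 7.40 to 10.6 on the other arrays (adjusted p = 0.011), and the cornified envelope protein *EVPL* 8.05, against 6.83 to 7.66 (adjusted p = 0.04). Both missed the minimum difference. *DSP*, desmoplakin, averaged 10.2 in PEO1, against 8.29 to 10.2, and overlapped the other lines. *DSG3*, the partner cadherin of stratified epithelium, was at 4.33 in PEO1, against 3.76 to 4.66 in the other lines and was not called.

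Keratins of both epithelial classes were higher. *KRT7* was at 13.3 and 13.4 in PEO1, against 10.4 to 11.9 with a median of 11.5 in the other lines, and the nearest line was OVCA433, 1.46 ± 0.06 below (limma adjusted p = 1.1e-11). *KRT19* was at 13.2 and 13.4 in PEO1, against 10.2 to 11.9 with a median of 11.2 in the other lines, and JHOS2 was nearest at 1.48 ± 0.07 below (adjusted p = 6.2e-11). The call of *KRT19* was lost with the error of all 56 arrays and also with that of 52. *KRT5*, the basal keratin, was at 13.5 and 13.6 in PEO1, against 5.34 to 12.2 with a median of 6.26 in the other lines. JHOS3 averaged 12 and JHOS4 9.66, and the remaining 5 lines lay far lower, so the mean difference of 6.07 was much larger than the 1.5 ± 0.14 that separated PEO1 from JHOS3. *KRT15*, a type I keratin of basal cells, was at 7.62 and 7.92 in PEO1, against 5.13 to 6.10 in the other lines. *KRT14*, the usual partner of *KRT5*, averaged 7.40 in PEO1, against 6.47 to 7.48 in the other lines, and was not called. Thus 2 of 6 simple and 2 of 6 stratified keratins were called higher (33.3% of each, beside 0.56% of all genes) and none lower. Their median differences were 1.56 and 0.96. *KRT8* averaged 13.7 in PEO1, against 11.7 to 13.2 in the other lines, and passed the p threshold but not the minimum difference.

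**Figure D3:**
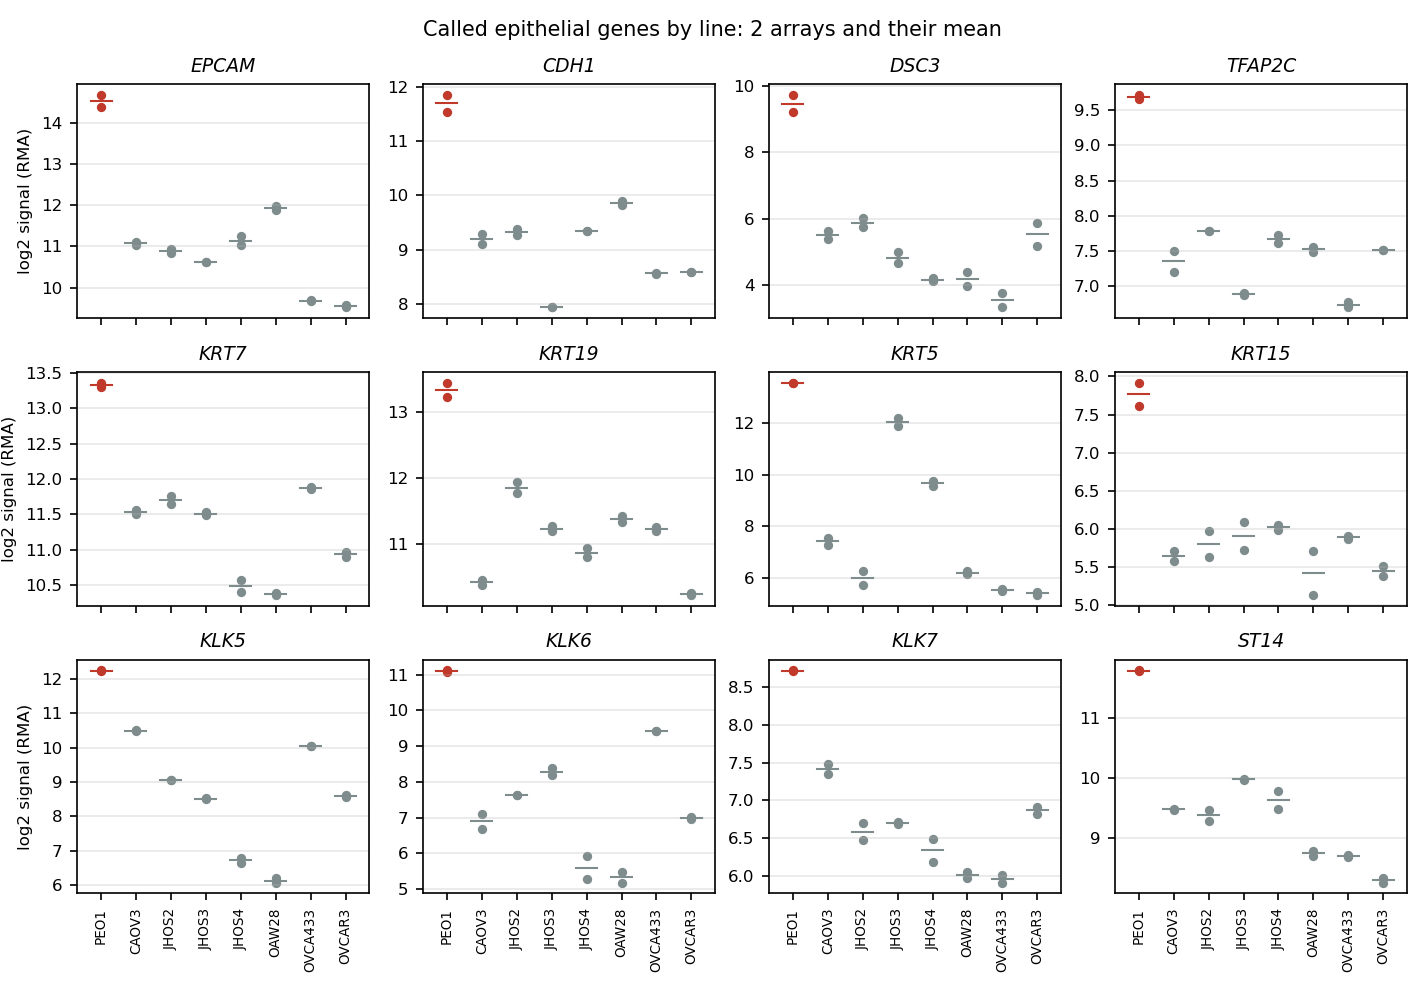
Log2 RMA signal (y axis, own scale in each panel) of 12 called genes in PEO1 (red, left) and the 7 other lines (grey); points are the 2 arrays and the bar is their mean. PEO1 is highest in every panel, and JHOS3 comes closest for *KRT5* at a mean of 12.

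Secreted and membrane serine proteases formed a further group. The kallikreins *KLK5*, *KLK6* and *KLK7* act in skin shedding and are secreted by ovarian carcinomas. *KLK5* was at 12.3 and 12.2 in PEO1, against 6.07 to 10.5 with a median of 8.60 in the other lines. *KLK6* was at 11.1 on both PEO1 arrays, against 5.18 to 9.43 with a median of 7.07 in the other lines. *KLK7* was at 8.71 and 8.72 in PEO1, against 5.91 to 7.49 with a median of 6.59 in the other lines. The other lines differed widely among themselves in *KLK5* and *KLK6*, and PEO1 lay 1.74 ± 0.08, 1.67 ± 0.18 and 1.30 ± 0.12 above the nearest line for the 3 genes (limma adjusted p = 2.5e-11, 1.1e-05 and 7.5e-07). They were 3 of 15 kallikreins measured (20%, beside 0.56% of all genes). The median of the family was 0.04, since *KLK1* to *KLK4* and *KLK12* to *KLK15* differed by at most 0.30 from the mean of the other lines. *KLK10* averaged 9.61 in PEO1, against 7.0 to 10.6 in the other lines, and was not called. *ST14*, the membrane protease matriptase, was at 11.8 on both PEO1 arrays, against 8.26 to 9.99 in the other lines, and *SPINT1*, its inhibitor, at 10.7 and 10.8, against 8.0 to 9.38. PEO1 exceeded JHOS3 by 1.80 ± 0.09 for *ST14* and OAW28 by 1.4 ± 0.09 for *SPINT1*, and these were 2 of 14 genes of that list (14.3%). *SPINT2*, the related inhibitor, averaged 11.9 in PEO1, against 9.83 to 11.5 in the other lines, a difference from the nearest line of 0.40.

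Epithelial transcription factors were separated from the other lines to different degrees. *TFAP2C*, an AP-2 transcription factor, was at 9.72 and 9.66 in PEO1, against 6.69 to 7.79 with a median of 7.51 in the other lines, and stood 1.90 ± 0.11 above JHOS2 (limma adjusted p = 4.1e-10). It was the 1 call among 14 epithelial transcription and splicing factors (7.14%, beside 0.56% higher over all genes), whose median difference was 0.71. *GRHL2*, which activates *CDH1* and other junction genes, was at 10.7 and 10.4 in PEO1, against 6.94 to 10.5 with a median of 7.85, and was called only once OAW28 was left out, 1.66 above the nearest remaining line. *OVOL2* was at 8.09 and 8.06 in PEO1, against 6.48 to 7.34 in the other lines, and lay 0.84 above JHOS4 (adjusted p = 0.00076), short of the minimum. *GRHL1* and *ELF3* averaged 8.09 and 9.64 in PEO1, against 5.32 to 7.37 and 5.82 to 8.72 on the other arrays, and lay 0.73 and 0.95 above the nearest line. On the mesenchymal side none of 9 EMT-inducing factors and none of 13 cytoskeletal and cadherin genes was called, with medians of -0.13 and -0.60. Over all genes 0.56% were called higher and 0.114% lower, so no call in lists this short says little about them. *ZEB1* was at 4.92 and 4.33 in PEO1, against 4.89 to 6.61 in the other lines, and *VIM*, vimentin, at 5.61 and 5.92, against 4.47 to 12.1. *CDH2*, N-cadherin, was at 5.91 and 5.77 in PEO1, against 5.49 to 11.2 in the other lines. The *VIM* and *CDH2* levels of PEO1 thus fell within a group that was itself split, and *CDH6* and *AXL* averaged 12.6 and 9.91 in PEO1, within 4.23 to 12.7 and 6.99 to 11.5.

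The EMT signature was read from the study's list that counts EMT-correlated methylation sites for signature genes. It is not the whole signature behind the EMT score. Not every listed gene has such a site, and by the paper very few mesenchymal genes do. That list holds 197 epithelial and 223 mesenchymal genes. Of these, 19 of 184 measured epithelial genes were called higher (10.3%, beside 0.56% of all genes) and none lower, with a median difference of 0.81. Of the 200 mesenchymal genes 1 was higher, *BMERB1* (0.5%, beside 0.56% of all genes). 4 were lower, *MPDZ*, *NSL1*, *PTMS* and *ATP8B2* (2%, beside 0.114% of all genes). The median difference of the 200 was -0.29. The signature was chosen on ovarian cancer lines and PEO1 was known to lie at its epithelial end, so these counts are not independent evidence of a direction.

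ZEB and SNAI factors bind the E-box letters CACCTG and CAGGTG. The promoters of 3 higher genes of different groups and chromosomes that hold these letters are shown: *RAB25*, a GTPase of apical recycling, *KRT5* and *KLK6*. Most higher genes with a promoter entry held none of them, and *CDH1*, *EPCAM*, *ST14* and *KRT19* had no entry. Each promoter shown is 300 bases around the RefSeq start (GRCh38.p14) on the gene's own strand, with these letters in capitals.
RAB25 (chr1:156060910-156061209, plus strand): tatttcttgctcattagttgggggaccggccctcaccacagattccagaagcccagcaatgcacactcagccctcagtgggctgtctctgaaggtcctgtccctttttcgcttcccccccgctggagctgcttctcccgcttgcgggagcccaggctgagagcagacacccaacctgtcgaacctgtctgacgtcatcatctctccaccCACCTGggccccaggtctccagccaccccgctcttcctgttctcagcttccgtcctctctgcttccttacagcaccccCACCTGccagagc
KRT5 (chr12:52520345-52520644, minus strand): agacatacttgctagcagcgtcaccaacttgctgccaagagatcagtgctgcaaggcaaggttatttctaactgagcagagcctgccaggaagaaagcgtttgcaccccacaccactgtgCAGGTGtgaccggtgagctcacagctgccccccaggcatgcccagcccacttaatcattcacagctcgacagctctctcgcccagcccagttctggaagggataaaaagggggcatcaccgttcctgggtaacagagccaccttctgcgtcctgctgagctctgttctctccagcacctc
KLK6 (chr19:50969542-50969841, minus strand): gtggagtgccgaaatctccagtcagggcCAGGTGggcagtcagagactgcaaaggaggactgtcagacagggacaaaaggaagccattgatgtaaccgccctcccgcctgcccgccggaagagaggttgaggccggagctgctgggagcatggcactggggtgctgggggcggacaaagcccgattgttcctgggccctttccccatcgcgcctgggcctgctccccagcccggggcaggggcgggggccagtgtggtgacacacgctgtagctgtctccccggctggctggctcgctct
The 2 motifs are reverse complements, so a search for both covers both strands, and each is also a case of the wider E-box CANNTG. They were in a listed promoter of 28 of 72 higher genes with an entry (38.9%) and of 2 of 17 lower genes (11.8%), beside 3510 of 14208 tested genes (24.7%). A match is a description and not a binding site, and genes with several listed starts had more chances of one. *RAB25* was at 12.4 and 12.5 in PEO1, against 5.04 to 11.2 with a median of 8.5 in the other lines, and OAW28 was 1.34 ± 0.08 below PEO1. Its call was lost with the error of all 56 arrays and also with that of 52 (limma adjusted p = 1 and 0.589).

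*ESR1*, the estrogen receptor alpha gene, separated PEO1 from each of the 7 other lines of the group. It was at 8.24 and 7.83 in PEO1, against 4.77 to 5.89 with a median of 5.35 in the other lines, a 4.6-fold difference from JHOS3 (2.20 ± 0.17, limma adjusted p = 3.8e-08). Outside the group OVCA432 averaged 7.64, beside 8.03 in PEO1. *ESR1* was the 1 call among 26 genes of the receptor and its targets (3.85%, beside 0.56% of all genes), whose median difference was 0.31. *PGR*, the progesterone receptor and a classical target, was at 3.98 and 4.46 in PEO1, against 3.99 to 4.54 in the other lines. *GREB1* averaged 5.50 in PEO1, against 4.71 to 5.33 on the other arrays, and *TFF1* 6.38, against 5.87 to 6.65. *XBP1* averaged 9.36 in PEO1, against 9.46 to 11.5 in the other lines, and *CCND1*, cyclin D1, 11, against 8.31 to 11.5. None of these targets passed the test, so *ESR1* was high without a called target on this list.

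Growth factor ligands of the ERBB family were called rather than receptors. *EREG*, epiregulin, a ligand of EGFR and ERBB4, was at 7.67 and 7.69 in PEO1, against 4.6 to 5.58 with a median of 5.26 in the other lines, 2.11 ± 0.15 above JHOS2 (limma adjusted p = 1.8e-08). *NRG4*, a neuregulin that binds ERBB4, was at 6.83 and 6.88 in PEO1, against 3.49 to 5.54 with a median of 4.22 in the other lines, 1.47 ± 0.16 above OAW28 (adjusted p = 5.5e-06). With the error over all 56 arrays their adjusted p was 0.17 and 0.13, and over the 52 arrays 0.00029 and 0.0018. They were 2 of 15 genes of the family (13.3%, beside 0.56% of all genes), with a median of 0.55. *ERBB2* was at 9.19 and 9.25 in PEO1, against 7.55 to 9.07 in the other lines, 0.21 above JHOS2, and was not called. *ERBB3* averaged 8.87 in PEO1, against 6.29 to 8.48 in the other lines, and *TGFA* 9.38, against 5.47 to 8.90; both passed the p threshold and missed the minimum. *ERBB4* averaged 4.88 in PEO1, against 4.6 to 8.71 in the other lines.

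Further called genes came 1 from a list. *S100A14*, an epithelial calcium-binding protein, was at 12.1 on both PEO1 arrays, against 7.36 to 11 in the other lines, and *ALDH1A3*, a retinaldehyde dehydrogenase, at 12.4 and 12.5, against 5.97 to 11. *ALDH1A3* lost its call with the mean over its probe sets, where it stood 0.81 above the nearest line. *IL18* was at 9.27 and 9.42 in PEO1, against 4.04 to 8.36 in the other lines, and *SCNN1G*, a subunit of the epithelial sodium channel, at 7.24 and 7.34, against 4.63 to 6.27. Both lay just past the minimum, at 1.03 above the nearest line, and lost the call after further quantile normalization (0.99 each) or without the second PEO1 array (0.96 and 0.98), *IL18* also without the first JHOS2 array (0.99). With the error of all 56 arrays none of these 4 genes was called, and with that of 52 *ALDH1A3* and *SCNN1G* were called but *S100A14* and *IL18* were not (limma adjusted p = 0.0743 and 0.655). Among the remaining higher genes, named after their values were seen, were complement *C3*, at 11.9 and 11.6 in PEO1 against 4.86 to 9.80, *MAL2*, at 14.8 on both arrays against 10.8 to 12.9, and *PAX9*, at 8.76 and 8.24 against 5.88 to 6.75. *LCN2*, lipocalin 2, was at 11.6 and 11.8 in PEO1, against 6.35 to 10.5 in the other lines, and the mucin *MUC4* at 8.61 and 8.27, against 5.12 to 7.31.

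The genes that were lower in PEO1 were of mixed function. *NETO2*, an auxiliary subunit of kainate receptors, was at 6.34 and 6.14 in PEO1, against 8.15 to 10.1 with a median of 9.5 in the other lines, a difference of -1.98 ± 0.10 log2 units from CAOV3, the nearest line (limma adjusted p = 6.2e-11). *HSPA13*, an Hsp70 family member of microsomes, was at 7.51 and 7.62 in PEO1, against 9.17 to 10.2 in the other lines. *E2F5*, a repressive E2F factor, was at 5.69 and 5.17 in PEO1, against 6.98 to 9.11 in the other lines, and *SMARCA1*, an ISWI chromatin remodeller, at 7.26 and 7.14, against 8.41 to 10.6. The difference from the nearest line was -1.65 for *HSPA13*, -1.56 for *E2F5* and -1.53 for *SMARCA1*. Metabolic enzymes were among them: *CYP2R1*, the vitamin D 25-hydroxylase, was at 4.96 and 5.17 in PEO1, against 6.54 to 8.42 in the other lines. *ISYNA1*, which makes inositol phosphate from glucose 6-phosphate, was at 6.24 and 6.25 in PEO1, against 7.63 to 10.6 in the other lines. *GNE*, the key enzyme of sialic acid synthesis, was at 3.56 and 3.90 in PEO1, against 4.67 to 10.2 with a median of 7.57 in the other lines. *GNE* lost its call without the first PEO1 array or the second OVCA433 array, with differences of -0.99 and -0.95 from the nearest line.

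*UCHL1*, a deubiquitinase of neurons, was at 6.69 and 6.91 in PEO1, against 8.06 to 12.2 with a median of 10.8 in the other lines, and *INA*, the neuronal filament internexin, at 4.45 and 4.80, against 5.75 to 8.20. These were 2 of 18 neuronal genes (11.1%, beside 0.114% of all genes), and the median of that list was -0.19; *INA* differed by -0.99 from the nearest line without the first PEO1 array and then was not called. *IFI6* was at 6.62 on both PEO1 arrays, against 7.74 to 11.3 in the other lines. It was the 1 call among 33 interferon-stimulated genes (3.03%, beside 0.114% lower over all genes), and the list had a median of -0.19. *TP53INP1*, a p53 target, was at 5.59 and 5.2 in PEO1, against 6.29 to 9.14 in the other lines. It was the 1 call among 19 p53 targets (5.26%, beside 0.114% lower over all genes), whose median was -0.27. It lost the call without the second PEO1 array or the first JHOS4 array, with differences of -0.88 and -0.90 from the nearest line. *SPRY2*, a brake on receptor kinase signalling, was at 6.32 and 6.18 in PEO1, against 7.33 to 9.54 in the other lines, and *MAGED2* at 7.51 and 7.79, against 8.93 to 10.3. *PTMS*, parathymosin, was at 7.13 and 7.58, against 8.84 to 10.3 in the other lines, and *KRCC1* at 5.32 and 5.04, against 6.56 to 7.87. *H2BC12*, a histone gene with close copies, was at 7.84 and 7.82, against 8.90 to 11.6 in the other lines. The flippase gene *ATP8B2* was at 5.95 and 5.66 in PEO1, against 6.76 to 8.02 in the other lines, and lost its call without the second PEO1 array or the first OAW28 array (-0.94 and -0.95 from the nearest line). *NSL1*, a kinetochore gene, was at 8.32 and 8.31, against 9.35 to 10.3 in the other lines. *PARP1*, the DNA strand break sensor, was named after its values were seen; it was at 8.56 and 8.55 in PEO1, against 9.57 to 10.4 in the other lines, -1.05 ± 0.07 from JHOS2 (adjusted p = 4.6e-09). Of the 15 lowest genes, *PTMS*, *ISYNA1*, *UCHL1* and *MAGED2* kept the call with the error of all 56 arrays, and each gene but *H2BC12* kept it with that of 52.

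Several genes that are often used to describe serous lines missed the call. *PAX8* was at 10.1 on both PEO1 arrays, within the 6.15 to 10.8 of the other lines. *WT1* was at 8.09 and 8.14 in PEO1, against 5.78 to 9.04 with a median of 6.45 in the other lines, below OVCAR3 alone. *MUC16* was at 9.72 and 8.82 in PEO1, against 5.84 to 8.67 with a median of 6.43 in the other lines, and lay 0.61 above OVCAR3 (limma adjusted p = 0.13). With OVCAR3 left out both *WT1* and *MUC16* were called, at 1.37 and 1.46 above the next line, and *MUC16* was also called without the second PEO1 array. *BRCA1* was at 8.31 and 8.22 in PEO1, against 6.65 to 8.85 in the other lines, and *MYC* at 9.86 and 9.90, against 8.06 to 10.3. *CDKN2A* was at 6.87 and 6.78 in PEO1, against 5.47 to 9.46 in the other lines, and *CCNE1*, cyclin E1, at 7.51 and 6.94, against 7.08 to 10.1 with a median of 8.84. No gene was called among 21 genes of homologous recombination and the Fanconi pathway, 24 of mitosis, 19 of the Müllerian and serous list, 20 collagens, 24 HOX genes, 10 of MHC class I or 22 nuclear receptors of another list. Over all genes 0.56% were called higher and 0.114% lower, so no call in lists this short says little about them. Both PEO1 arrays lay above all 14 other arrays for 6 of the 19 Müllerian and serous genes (31.6%) and below for 1 (5.26%). Of the 24 mitosis genes 4 were above (16.7%) and 2 below (8.33%). The shares over all genes were 5.37% and 4.49%. *FANCC* averaged 6.53 in PEO1, against 7.14 to 8.25 in the other lines, and *PRAME* 7.41, against 7.94 to 11.3; both passed the p threshold but not the minimum. The ATF4 amino acid response had a median of -0.53 over 20 genes with no call, and *ASNS*, asparagine synthetase, averaged 7.70 in PEO1, against 8.28 to 10.2 in the other lines.

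**Figure D4:**
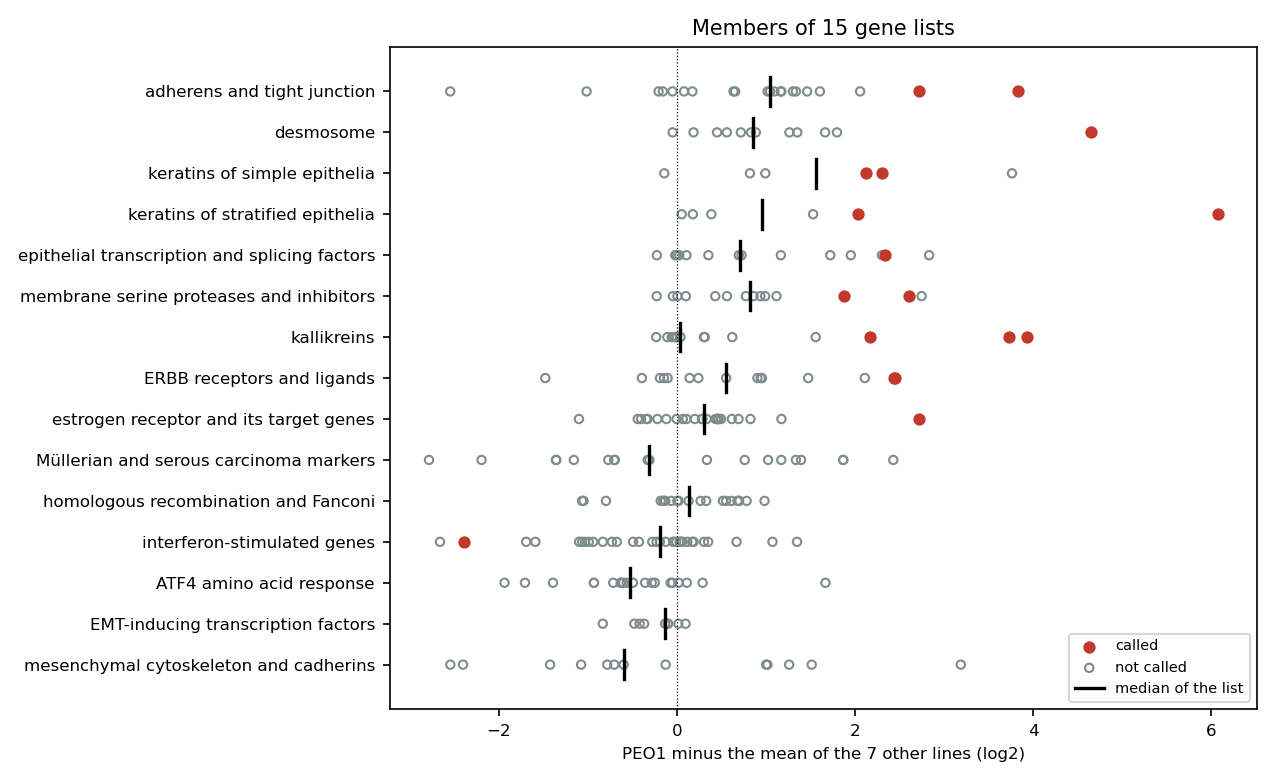
Difference of PEO1 from the mean of the 7 other lines in log2 units (x axis) for each measured member of 15 gene lists (rows); filled red points were called, open grey points were not, and the black bar is the median of the list. Simple keratins have a median of 1.56 and mesenchymal cytoskeleton genes of -0.60; the points of *EREG* and *NRG4* fall on each other.

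A test with the line as the unit asked whether PEO1 lay outside the spread among the 7 other lines. In limma on 8 line means 16 genes were higher (0.0871%) and 0 were lower (0%); at an unadjusted p under 0.05 there were 511 higher and 267 lower genes. All 16 were also called against every line. They include *ESR1* (2.72 above the mean of the other lines, adjusted p = 0.033), *EREG* (2.45, adjusted p = 0.026), *CEACAM6* (2.72, adjusted p = 0.0061), *BDKRB1* (3.51, adjusted p = 0.0058), *AFAP1-AS1* (2.68, adjusted p = 0.0015), *BGN* (2.53, adjusted p = 0.047) and *KRT15* (2.04, adjusted p = 0.034). *EPCAM* and *CDH1*, with mean differences of 3.83 and 2.72, did not pass (adjusted p = 0.39 and 0.55). When the 5108 genes under 6 log2 units in all 8 lines were left out no gene passed, with 595 at an unadjusted p under 0.05. The smallest adjusted p was then 0.0532, so the 16 calls depend on whether those low genes enter the fit. *ESR1* and *BDKRB1*, at means of 8.03 and 8.81 in PEO1, stayed in the fit and also lost the call. Permuting 8 lines cannot give a p below 0.125.

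The medium cannot be told apart from the line. Against OVCAR3, the other RPMI line of the group, and 7 further RPMI lines of the series, both PEO1 arrays were above all 8 line means for 88 of the 103 higher genes and below them for 13 of the 21 lower genes. Against all 27 other lines the counts were 68 and 8. 4 arrays of other lines had a narrow range of values, and without them these counts were 60 and 11. By line mean PEO1 was the highest of 28 for 74 of the higher genes and the lowest for 9 of the lower ones. The call had already put PEO1 beyond OVCAR3 and the rest of the group, so part of each count was fixed in advance. Shares over all genes were not computed for these counts. *EPCAM*, *CDH1*, *ST14*, *KRT5*, *KLK5* and *KLK6* were highest in PEO1, and *PTMS*, *E2F5*, *SMARCA1*, *CYP2R1*, *INA*, *GNE* and *IFI6* lowest. Other higher genes were shared with lines outside the group: *EREG* ranked 5 of 28, with OV56 highest at 10.6, and *CEACAM6* 4 of 28, with OVCA420 highest at 9.47. *IL7R* was at 9.13 in OVCAR2, and *DSC3* at 9.26 in OV17R. *BGN* averaged 10.1 in FUOV1.

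**Figure D5:**
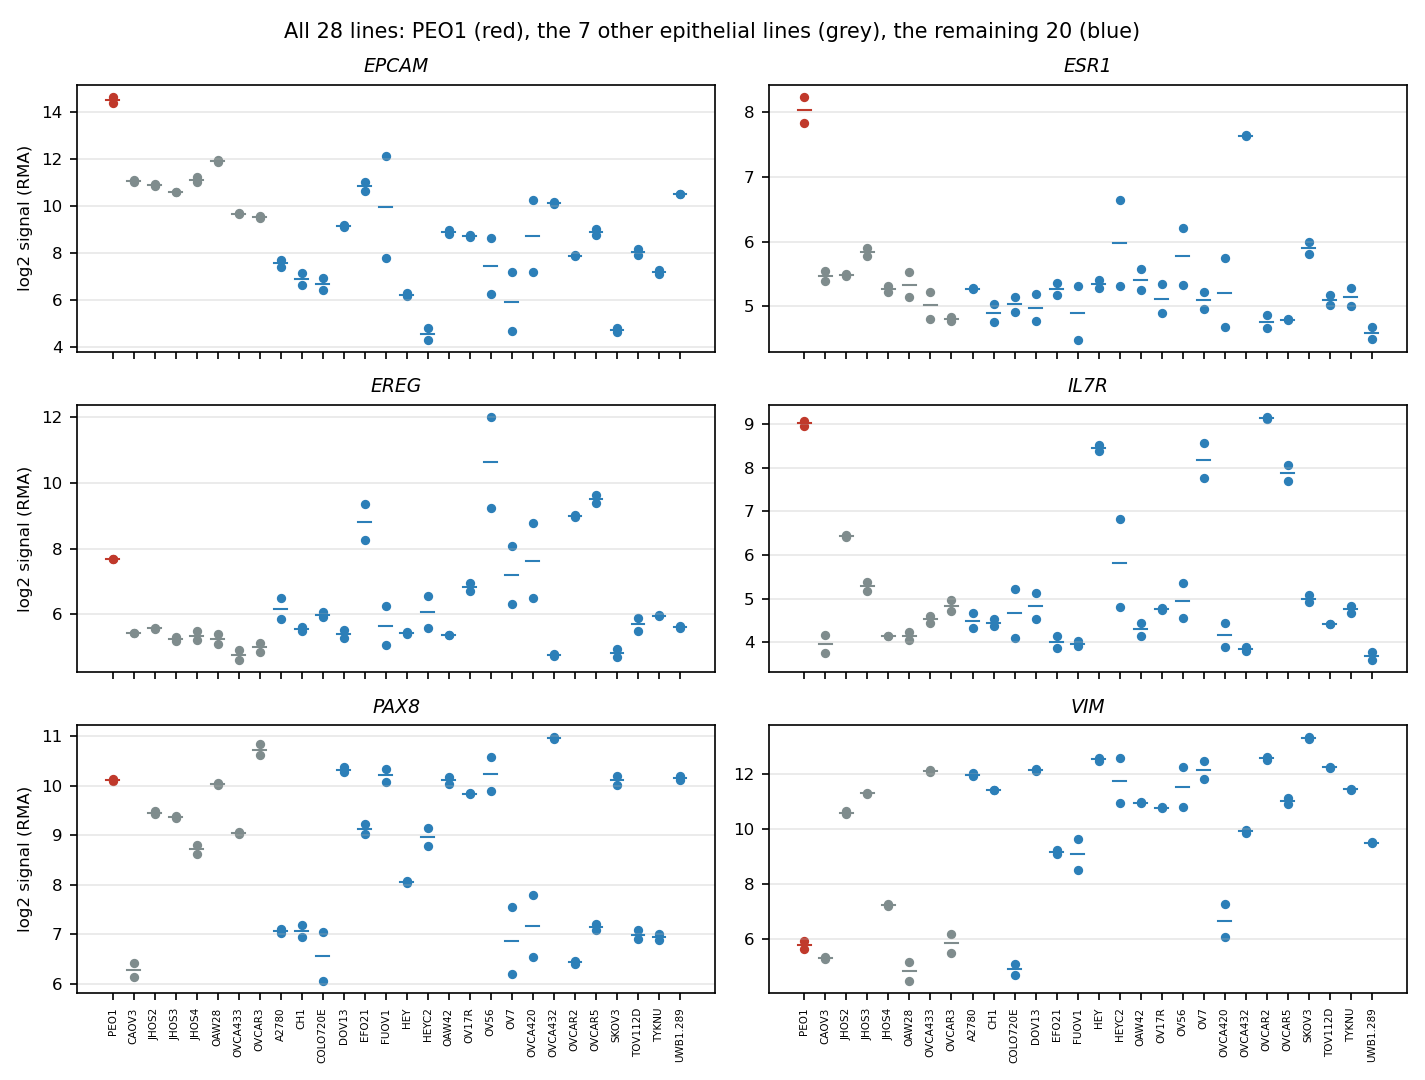
Log2 RMA signal (y axis, own scale in each panel) of 6 genes in PEO1 (red), the 7 other epithelial lines (grey) and the remaining 20 lines (blue); points are the 2 arrays and bars their means. *EPCAM* and *ESR1* are highest in PEO1, *EREG* and *IL7R* reach higher means in OV56 and OVCAR2, and *PAX8* and *VIM* of PEO1 lie within the range of the grey lines.

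Over all genes Pearson's r with PEO1 was highest for JHOS2 (0.950 across 18377 genes, which are not independent) and lowest for OVCAR3 (0.921), the line that shares its base medium. The next line was OVCA433 (0.946), and with each gene centred on the mean of the 8 lines OVCA433 came before JHOS2 (r = -0.0165 and -0.0231). By genes that differed from PEO1 by at least 1 log2 unit OVCA433 was also nearest with 1647, before JHOS2 with 1734, and OVCAR3 had 2575. JHOS2 was the nearest line for 22 of the 103 higher genes, and OVCA433 for 8 of the 21 lower ones.

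Some called genes are neighbours on their chromosomes, by RefSeq order (GRCh38.p14) with no other tested gene between them. *KLK5*, *KLK6* and *KLK7* are 1 such run on chromosome 19, and *KRT15* and *KRT19* a pair on chromosome 17. *AP1M2*, an adaptor of basolateral sorting, and *SLC44A2* are a pair on chromosome 19, *MPV17L* and *BMERB1* on chromosome 16, and *ATP10A* and *GABRA5* on chromosome 15. *AP1M2* was at 11 and 11.1 in PEO1, against 7.99 to 9.47 in the other lines. These pairs were named after their values were seen. The protocadherins *PCDHB8*, *PCDHB10* and *PCDHB13* on chromosome 5 were each called, but their sequences are nearly alike, so their signals may not be separate. By position, chromosome 15 had 10 higher genes of 574 tested (1.74%) and chromosome 18 had 4 of 264 (1.52%), beside 0.56% over all. 5 of the 21 lower genes were on chromosome 1, which held 1859 of the tested genes. Over all genes 0.114% were lower, and chromosomes 8, 9 and X held 2 lower genes each, of 638, 731 and 694 tested.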

How the data were processed

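Total RNA of 28 ovarian cancer cell lines, 2 arrays each, was hybridised to Affymetrix Human Gene ST arrays. Per the submitters' processing notes the authors used affy 1.42.3 for RMA, so that log2 signals were deposited; which arrays were normalised together and any batch are not given in the sources used here. Of 28869 probe sets, 19310 name 1 gene (19279 matched by gene ID), 1752 name several and 7807 name none listed. They gave 18377 genes, with the probe set of highest mean for the 685 genes with several. Of 1452 list entries 1302 were measured, and the others were not analysed here.

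A limma 3.58.1 model (R 4.3.3 with statmod 1.5.0; eBayes with trend and robust settings) gave line coefficients over 16 arrays, and the p of a gene is the largest of 7 two-sided p-values, set to 1 where the differences have both signs, with Benjamini-Hochberg adjustment over all genes. A second fit used 8 line means. SE is that of 1 line difference. Genes were called at an adjusted p under 0.05 and 1 log2 unit. The number of arrays limits the precision, and p-values of the first fit measure the spread between arrays of a line, not between lines.

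The members, lists and tests were chosen with earlier results of these data known. The 65 named genes included the 15 highest and 15 lowest called genes by the difference from the nearest line. For these, both PEO1 arrays had to lie beyond all 14 other arrays, which held for each called gene. Up to 4 called members of a list and 17 measured genes of a fixed panel were added. Other members of lists and *C3*, *MAL2*, *PAX9*, *LCN2*, *MUC4*, *PARP1* and the neighbouring genes were named after their values were seen. Alternatives were the mean over probe sets, quantile normalisation, a filter at 6 log2 units, other minimum differences, leaving out each array or line, a replicate block, other error models and eBayes without trend. Values without 4 arrays of narrow spread were added after the data were seen. Promoters are from RefSeq (GRCh38.p14). Tables and plots were made in Python 3.11.15 (matplotlib 3.10.9, pandas 2.3.3, numpy 2.4.6).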

Additional observations from a re-analysis of the deposited data

Results flagged for a closer look

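In each of the 65 named genes the 7 other lines were searched for 1 line far from the rest, by the gap to its nearest neighbour over the whole range, and 2 genes had such a line; chance flags about 1 in 20 groups. *IL18* averaged 9.35 in PEO1 and 4.12 in OAW28, with the remaining 6 lines between 6.71 and 8.31. *WT1* averaged 8.12 in PEO1 and 8.97 in OVCAR3, with the remaining 6 lines between 5.98 and 6.74.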

How the results depend on the processing

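The 103 higher and 21 lower genes beyond every other line were 396 and 258 with no minimum difference and 14 and 0 with a minimum of 2 log2 units, where 1181 genes had an unadjusted p under 0.05. With the spread pooled over all 56 arrays they were 59 and 5, and over 52 arrays, without 4 of narrow spread, 95 and 20. Leaving out 1 array gave 100 to 113 higher genes, with 92 to 103 of the original ones still called, and 20 to 24 lower genes. Leaving out 1 line gave 109 to 126 higher and 23 to 37 lower genes, the most lower ones without CAOV3 or OVCA433 (37 each). The counts stayed within 1.5 times under the remaining alternatives. Of 51 named genes that were called, 6 lost the call without 1 array, 23 with the spread of 56 arrays and 5 with that of 52. Without 1 line 0 lost it, but leaving out a line removes a difference to be passed. That makes the rule easier, so it could hardly cost a call. *PGR*, never called, differed by 0.30 without PEO1 replicate 1 and turned to -0.17 without PEO1 replicate 2.

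Against the mean of the 7 other lines, the 16 higher genes were 0 with the filter at 6 log2 units, where the smallest adjusted p was 0.0532 and 595 genes had an unadjusted p under 0.05; the cause was not tested. They were 13 to 18 without 1 array and 10 to 15 without 1 line, 10 each without OVCAR3, OAW28 or JHOS4. With the spread between arrays as the error, and with the replicate block in that fit, there were 671 higher and 441 lower genes, since lines then are not the unit. Replicate numbers did not pair the arrays (correlations of deviations -0.15 to 0.23), and the block left the first test at 103 and 21. Low signals carry no detection call.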
